A study of Arabidopsis thaliana with 27 samples.

Results

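Cysteine-rich receptor-like kinases (CRKs) of Arabidopsis thaliana were followed in dark-grown seedlings given UV-B radiation. The family was taken from a list of 43 locus identifiers, each matched to its row among the 32832 loci in the count table. Of these 43 loci, 42 had at least 1 read in the series and 28 passed the filter on low counts, so that 28 of the 19794 genes tested were CRKs. The 9 groups hold 3 libraries each, 27 in all, made from excised etiolated hypocotyls. Seeds germinated for 2.5 days in darkness on 0.5-strength MS medium with 100 µM of the gibberellin GA4 and were then given UV-B or kept dark. Harvest was 6 h after exposure by the protocol, while the title of the series gives 2 days. The groups were xpf-3 seedlings, uvr8-6 seedlings and wild-type Columbia-0 (WT) seedlings, each kept dark, given 3000 µmol m-2 UV-B (the low dose, about 5 min) or given 30000 µmol m-2 (the high dose, about 45 min). xpf-3 is a mutant of UVH1, the XPF-type nuclease of nucleotide excision repair, and uvr8-6 is a mutant of the UV-B photoreceptor UVR8. Nothing in the labels says whether the 3 libraries of a group came from separate cultures, so p-values measure the spread between these libraries, which may be technical.

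CRKs sit in the plasma membrane with an outer part of cysteine-rich DUF26 repeats, a single membrane span and a cytosolic serine/threonine kinase. The outer part resembles that of the plasmodesmata-located proteins (PDLPs), which lack the kinase. As background, CRK genes are known for their transcriptional response to ozone, salicylic acid and pathogen signals, and several members act with immune receptors or with RBOHD, the NADPH oxidase of the oxidative burst. A few family members lack parts of this layout: ARCK1 (CRK45) is known as a cytosolic kinase, and the RefSeq coding length of EP1 and of AT4G11521 is 265 residues each, against 354 for ARCK1 and 615 for RKF2 (CRK1).

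Values are given in CPM, each gene's reads as a share of the library's total after TMM scaling, brought to the same total for every library. Totals were 4508097 to 11045334 reads in xpf-3, 12488317 to 15342281 in uvr8-6 and 6163441 to 11984665 in WT. A note in the deposited workbook says that the uvr8-6 libraries came from a later run than the 2 other genotypes, so run and genotype cannot be told apart in any uvr8-6 to WT comparison. In darkness the uvr8-6 libraries held 3.50 ± 0.945 CPM of UVR8, against 70.6 ± 0.994 CPM in WT (SD, n = 3 each), while UVH1 stood at 46.5 ± 6.25 CPM in xpf-3 and 19.2 ± 0.201 CPM in WT, a count that cannot check an allele whose lesion the labels do not give. WT dark library 1 stood apart from libraries 2 and 3, with a chi-square per degree of freedom of 24.1 and 24.7, against 4.89 between libraries 2 and 3. In uvr8-6, dark library 3 stood apart (17.6 and 28.6, against 13.1 between the other two), as did low-dose library 2 (18.7 and 16.2, against 7.255) and high-dose library 2 (20.5 and 21.3, against 11.4). Organelle reads made up 0.641% of xpf-3 low-dose library 1, against 0.0524% and 0.0538% in its replicates.

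Several sets of tissue markers moved with dose, and the summed levels of each set are given from dark over the low to the high dose. The markers of an etiolated shoot (PORA, PORB and HLS1) were present in every library, at 727 to 1204, 2431 to 3258 and 4171 to 4728 CPM in xpf-3, 1076 to 1585, 1104 to 2030.4 and 2059 to 3608 CPM in uvr8-6, and 1003 to 1888, 1140.1 to 2205 and 1753 to 1947 CPM in WT. The 4 root markers summed to 239 to 399, 28.3 to 61.8 and 24.6 to 59.4 CPM in xpf-3, 149.9 to 239, 124 to 211 and 12.2 to 33.9 CPM in uvr8-6, and 269 to 378, 44.7 to 93.1 and 11.1 to 23.9 CPM in WT. The 2 epidermal markers summed to 374 to 452, 212 to 244 and 206 to 241 CPM in xpf-3, 314 to 331, 244 to 302 and 225 to 282 CPM in uvr8-6, and 348 to 380, 277 to 292 and 134 to 231 CPM in WT. The root sum at the low dose thus lay below every dark library in xpf-3 and in WT, and overlapped with dark in uvr8-6. At that dose 2 of the 4 root markers were called lower in xpf-3 and in WT, against 33.9% and 12.7% of all genes. The 2 others did not pass edgeR's test there. In uvr8-6 at the low dose 0 of the 4 passed, where 2.88% of all genes were lower. At the high dose 4 of 4 were called lower in xpf-3, uvr8-6 and WT, against 35.5%, 25.4% and 31.5% of all genes. The 4 markers of shoot apex and stomata, 3 of them tested, summed to 1.06 to 1.82, 3.65 to 5.30 and 8.99 to 11.2 CPM in xpf-3, 8.24 to 14.1, 10.6 to 12.8 and 16.9 to 18.8 CPM in uvr8-6, and 1.59 to 5.60, 2.60 to 4.48 and 5.17 to 8.55 CPM in WT. The ribosomal RNA share was 0.0166% to 0.0218%, 0.0496% to 0.0766% and 0.304% to 0.406% of reads in xpf-3, 0.0249% to 0.0878%, 0.0371% to 0.0525% and 0.0933% to 0.282% in uvr8-6, and 0.0072% to 0.00789%, 0.0308% to 0.0382% and 0.362% to 0.468% in WT. The 3 seed markers (CRU3, CRA1 and OLEO1) summed to 1.65 to 3.32, 2.86 to 6.10 and 4.31 to 9.70 CPM in xpf-3. Their sums were 1.67 to 2.59, 1.06 to 2.08 and 1.02 to 2.23 CPM in uvr8-6. In WT they were 0.707 to 6.35, 0.448 to 3.95 and 0.902 to 2.42 CPM. Against dark, 0 of the 3 passed edgeR's adjusted threshold at either dose in any genotype (5.51% to 73.3% of all genes either way). The part of tissue make-up and RNA composition in the CRK results was not tested.

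The loci are unevenly spread over the genome, which matters for the counting of reads. In the RefSeq TAIR10.1 annotation, 20 of the 43 loci, CRK5 to CRK24, lie in 1 run of 74214 bases on chromosome 4 (chr4:12117491-12191704), and CRK36 to CRK40 (5 loci, chr4:2231717-2292965) and CRK30 to CRK34 with AT4G11521 (6 loci, chr4:6963521-6989793) form 2 shorter runs. The deposited files name no genome build, and positions here are those RefSeq gives for the same locus identifiers. Between members, CRK28 and CRK29 overlap by 470 bases and CRK16 and EMB1290 (CRK17) by 1190 bases on the same strand, so the split of reads within these 2 pairs is uncertain. CRK10 and CRK11 overlap by 32 bases on opposite strands. The share of 50-base windows of a member's exons found elsewhere was highest for CRK6 (21.95%), CRK8 (16.48%), CRK22 (16.15%) and CRK13 (15.36%), and the values of these 4 are therefore less certain. CRK6 and CRK8 shared 452 such windows and CRK13 and CRK22 shared 365. Reads could also be shared with a non-member neighbour on the same strand at CRK29 (305 bases of overlap). CRK19 (102 bases), CRK25 (492 bases), CRK42 (130 bases) and ARCK1 (40 bases) overlap non-members on the opposite strand. Reads there could be shared only if strand was ignored in counting.

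**Figure D1:**
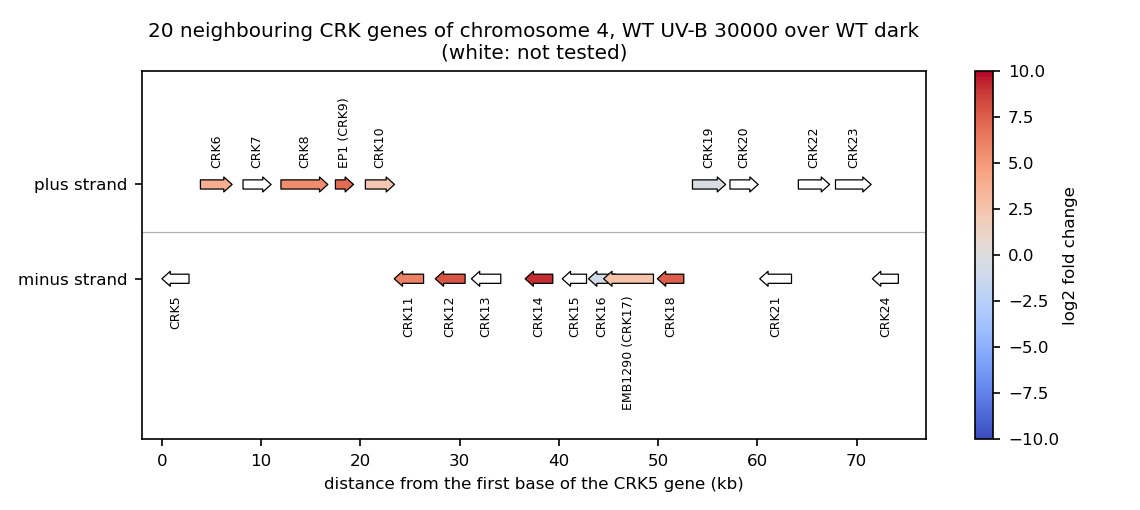
The 20-gene run on chromosome 4 drawn to scale by distance in kb from the first base of CRK5, with plus-strand genes above and minus-strand genes below. Arrows are coloured by the fitted log2 fold change of WT at 30000 µmol m-2 over WT dark (red higher, blue lower, white not tested). For genes at 0 counts in dark this value depends on the prior count. Of the 11 tested genes 9 rose, against 33% of all tested genes. The pale arrows of CRK16 and CRK19 are the 2 that did not pass.

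WRKY transcription factors, known regulators of defence genes, bind the W-box, whose core is TTGAC. The 250 bases before each gene's start were searched for that core on both strands. It occurred in 31 of 43 CRK windows (72.09%), against 44.93% of the 27443 gene windows of the same length, and at least 2 copies occurred in 18 CRK windows (41.86%), against 14.11%. At least 3 copies stood in 8 windows (18.6%), against 3.38%. The as-1 core TGACG, which can overlap a W-box, occurred in 14 CRK windows (32.56%), against 18.58% of all windows. Of the 43 windows, 9 overlap another gene, and the 3 that lie wholly inside one are those of CRK16, CRK28 and CRK29. The sequences below are the windows of CRK11, with 6 cores, of CRK41, with 4, of CRK18 and CRK31, with 3 each, and of CRK19, with 0; the first 4 were picked for their cores among the 7 loci that rose in WT at both doses, and CRK19 as an abundant locus that did not rise. Of the other loci in the 7, AT4G11521 has 3 cores, CRK36 has 1 and ARCK1 has 0. Capitals mark the W-box core on either strand (TTGAC or GTCAA).
CRK11, chr4:12143859-12144108, minus strand: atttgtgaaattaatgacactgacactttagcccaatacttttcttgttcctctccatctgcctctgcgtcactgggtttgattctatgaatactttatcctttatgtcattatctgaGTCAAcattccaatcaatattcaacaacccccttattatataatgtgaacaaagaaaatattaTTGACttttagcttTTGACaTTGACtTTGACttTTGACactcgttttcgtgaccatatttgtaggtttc
CRK41, chr4:418077-418326, plus strand: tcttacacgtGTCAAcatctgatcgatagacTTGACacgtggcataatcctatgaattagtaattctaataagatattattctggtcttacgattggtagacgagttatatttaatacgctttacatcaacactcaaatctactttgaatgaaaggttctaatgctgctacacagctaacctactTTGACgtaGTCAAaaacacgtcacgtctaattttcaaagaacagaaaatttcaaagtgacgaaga
CRK18, chr4:12170081-12170330, minus strand: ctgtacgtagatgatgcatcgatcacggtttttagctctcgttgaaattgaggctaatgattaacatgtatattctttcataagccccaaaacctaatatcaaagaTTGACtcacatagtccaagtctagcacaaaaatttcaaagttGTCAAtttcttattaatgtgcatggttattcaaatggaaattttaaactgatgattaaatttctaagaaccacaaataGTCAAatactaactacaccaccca
CRK31, chr4:6967459-6967708, plus strand: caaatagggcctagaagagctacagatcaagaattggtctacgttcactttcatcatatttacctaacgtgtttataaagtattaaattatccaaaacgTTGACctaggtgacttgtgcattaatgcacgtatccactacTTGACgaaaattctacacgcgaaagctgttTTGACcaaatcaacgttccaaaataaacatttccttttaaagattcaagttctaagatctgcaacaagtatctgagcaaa
CRK19, chr4:12170705-12170954, plus strand: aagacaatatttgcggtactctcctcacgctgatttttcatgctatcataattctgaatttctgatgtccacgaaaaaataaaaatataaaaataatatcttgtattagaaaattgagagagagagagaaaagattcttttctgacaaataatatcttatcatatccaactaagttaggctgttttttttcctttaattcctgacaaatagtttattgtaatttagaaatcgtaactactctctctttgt
A core stood in 14 of the 20 members that rose in WT at the high dose, in 4 of the 4 that fell, in 2 of the 4 that did not pass the test and in 11 of the 15 that were not tested. At least 2 cores stood in 10 of the 20, 1 of the 4, 1 of the 4 and 6 of the 15. Among the members at 0 counts in WT dark that rose at the high dose, CRK41 has 4 cores. AT4G11521 and CRK31 have 3 each, and CRK14 and CRK39 have 2 each. The windows of ARCK1, CRK12 and CRK40 hold no core.

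In WT darkness, few CRKs made up most of the family's reads. Per kilobase of exon, CRK19 was highest at 37.3 CPM, followed by CRK3 (20.6), CRK29 (16.6), CRK10 (8.52) and CRK2 (7.80). Together these 5 held 86.81% of the summed CRK CPM in WT dark, while 21 of the 43 loci had 0 counts in all 3 libraries. At the high dose the order per kilobase was CRK11 (45.0 CPM), CRK10 (42.7), CRK3 (32.6), CRK19 (30.7) and EMB1290 (21.3). The share of the 5 dark-expressed loci was 77.4% in WT at 3000 and 52.32% in WT at 30000 µmol m-2, and loci without a count numbered 12 and 4. Summed over the family, WT libraries held 241 to 311 CPM in dark, 215 to 370 CPM at the low dose and 586 to 837 CPM at the high dose.

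The high dose raised most tested CRKs in WT. Compared with dark, 20 of the 28 tested members were higher, against 33% of all tested genes, and 4 were lower, against 31.5%; 64.5% of all genes were called either way. The median log2 fold change was 3.28 over the 28 members and 0.03 over all tested genes. The 28 passed the filter partly through the groups in which they were high, so these counts describe them only. For members named because of a call, here and below, the separation of their libraries is no further result. In hypocotyl tissue as a whole, a change in RNA per cell and a change in the number of cells of a type cannot be told apart. Adjusted p-values are from edgeR's quasi-likelihood test with Benjamini-Hochberg adjustment over all 19794 genes, with a threshold of 0.05, and log2 fold changes are given ± SE. Where a call given with its values was lost with 1 library left out, the library is named, with the range of the log2 fold change over all such fits and the highest adjusted p among them.

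**Figure D2:**
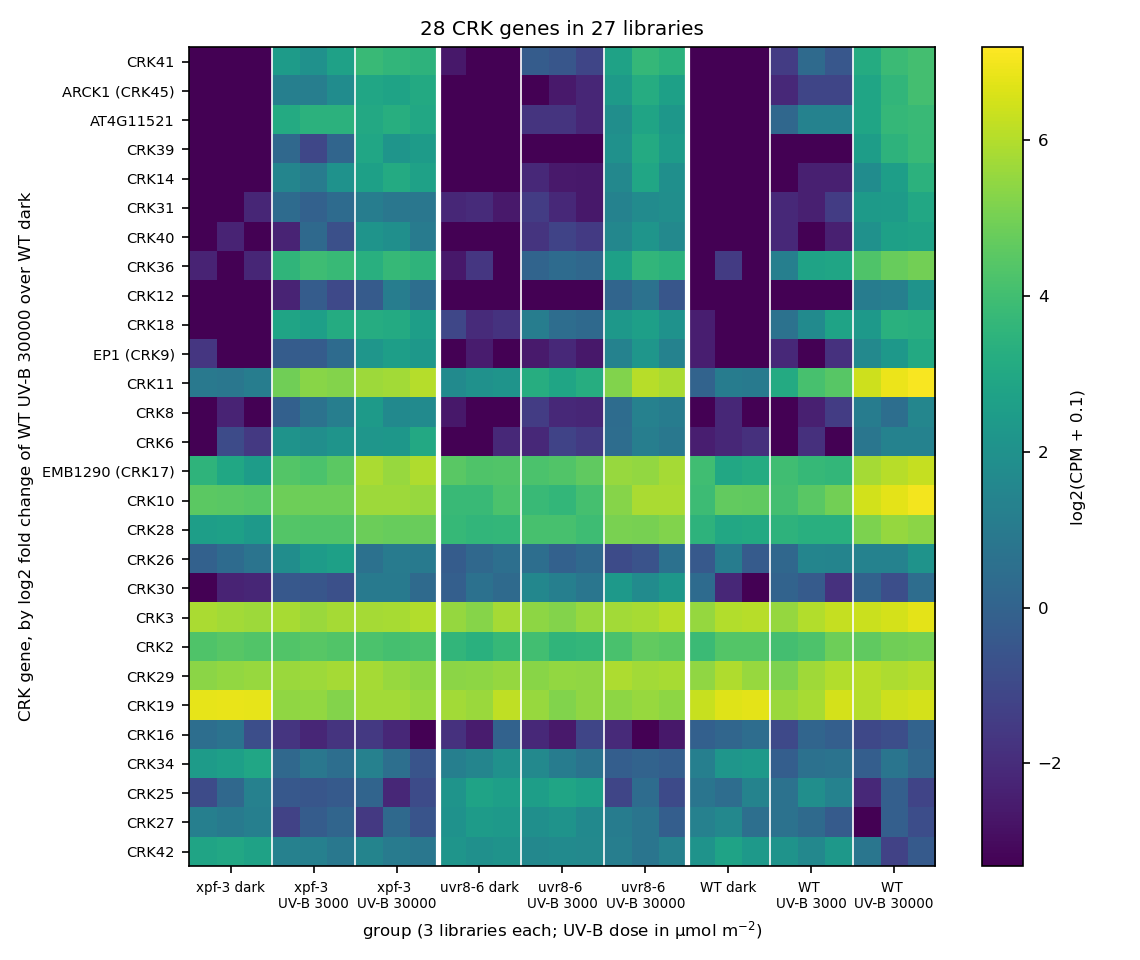
Level of the 28 tested members, as log2(CPM + 0.1), in each of the 27 libraries (columns: xpf-3, uvr8-6 and WT, each from dark to 30000 µmol m-2), with rows ordered by the fitted high-dose change in WT. The order of genes at 0 counts in WT dark depends on the prior count. The upper rows, such as CRK41 and ARCK1, are dark blue in the dark libraries and green at the high dose in all 3 genotypes, while CRK42 and CRK27 in the lowest rows are darker at the high dose.

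Among the members already expressed in dark, CRK11 (AT4G23190), a gene known to respond to oxidative stress and pathogens, changed most. CRK11 had 0.92, 2.02 and 1.95 CPM in WT dark, 8.43, 17.6 and 22.2 CPM at the low dose and 84.2, 119 and 139 CPM at the high dose (log2 fold change 6.16 ± 0.34, adjusted p = 2.11e-12 for high dose against dark). Each dose lay wholly above the one before. CRK10 (AT4G23180), its neighbour and a kinase whose gain-of-function allele dwarfs plants, had 14.9, 25.2 and 24.9 CPM in dark, 16.3, 22.6 and 30.9 CPM at the low dose and 90.03, 108 and 128 CPM at the high dose (log2 fold change 2.33 ± 0.21, adjusted p = 2.11e-09). Its dark and low-dose libraries overlapped and its high-dose libraries stood apart. CRK28 (AT4G21400), which associates with the flagellin receptor FLS2 and its co-receptor BAK1, had 10.9, 7.82 and 8.22 CPM in dark, 11.1, 9.96 and 9.96 CPM at the low dose and 35.2, 45.9 and 41.3 CPM at the high dose (log2 fold change 2.17 ± 0.12, adjusted p = 1.4e-12). EMB1290 (AT4G23250) had 15.8, 7.82 and 8.67 CPM in dark, 15.5, 13.0 and 12.3 CPM at the low dose and 55, 67.5 and 76.4 CPM at the high dose (log2 fold change 2.60 ± 0.22, adjusted p = 5.45e-10). Both genes share the pattern of CRK10, with an overlap of dark and low dose and a separate high dose.

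CRK2 (AT1G70520), the kinase that phosphorylates RBOHD, moved little by comparison. It had 14.5, 20.7 and 21.1 CPM in WT dark, 16.3, 19.2 and 29.7 CPM at the low dose and 24.6, 30.5 and 31.8 CPM at the high dose (log2 fold change 0.63 ± 0.19, adjusted p = 0.00479). CRK3 (AT1G70530), which lies next to CRK2 on chromosome 1, had 46.7, 63.2 and 67.4 CPM in dark, 46.9, 64.1 and 76.9 CPM at the low dose and 81.0, 90.8 and 109 CPM at the high dose (log2 fold change 0.66 ± 0.16, adjusted p = 0.000942). For both genes the high-dose libraries lay above all dark libraries. The most abundant family member in dark, CRK19 (AT4G23270), had 80.5, 102 and 110.1 CPM in dark, 49.0, 56.9 and 92.7 CPM at the low dose and 65.8, 83.2 and 92.5 CPM at the high dose (log2 fold change -0.28 ± 0.18, adjusted p = 0.184 for high dose against dark). CRK29 (AT4G21410) had 43.3, 62.0 and 47.8 CPM in dark, 35.2, 51.7 and 63.2 CPM at the low dose and 67.6, 59.1 and 64.4 CPM at the high dose (log2 fold change 0.33 ± 0.15, adjusted p = 0.0594). Neither CRK19 nor CRK29 passed the test at the high dose, and the dark and high-dose libraries overlapped for both.

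A further set of members was at or near 0 counts in WT dark and present at the high dose. For a group at 0 counts the fold change is given as a lower bound against 3 counts over its 3 libraries, a floor that covers counting error only. For a group with 1 to 3 counts the ratio of CPM is given with its 95% counting interval, under the same limit. CRK41 (AT4G00970) had 8.89, 14.2 and 16.8 CPM at the high dose and 0, 0 and 0 CPM in WT dark (at least 139-fold higher, adjusted p = 4.07e-10). ARCK1 (AT4G11890), which interacts with CRK36 in abscisic acid responses, had 7.21, 11.96 and 16.8 CPM at the high dose and 0, 0 and 0 CPM in dark (at least 126-fold higher, adjusted p = 1.47e-09). AT4G11521 had 7.08, 12.6 and 13.8 CPM at the high dose and 0, 0 and 0 CPM in dark (at least 116-fold higher, adjusted p = 1.06e-09). These 3 loci and the next 5 were picked for 0 counts in WT dark and a call, so their separation from dark is no further result. CRK39 had 5.67, 10.99 and 13.4 CPM at the high dose and 0, 0 and 0 CPM in dark (at least 105-fold higher, adjusted p = 2.65e-07). CRK14 had 3.35, 5.82 and 10.9 CPM at the high dose and 0, 0 and 0 CPM in dark (at least 71.8-fold higher, adjusted p = 1.39e-07). CRK31 had 5.15, 5.33 and 7.86 CPM at the high dose and 0, 0 and 0 CPM in dark (at least 64.9-fold higher, adjusted p = 1.72e-10). All 3 had counts in every high-dose library. CRK40 had 3.86, 6.30 and 6.59 CPM at the high dose and 0, 0 and 0 CPM in dark (at least 58.0-fold higher, adjusted p = 4e-08). CRK12 had 2.06, 2.26 and 4.16 CPM at the high dose and 0, 0 and 0 CPM in dark (at least 30.4-fold higher, adjusted p = 1.65e-05).

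CRK36 (AT4G04490), which is known to interact with ARCK1 and with the immune kinase BIK1, was all but absent in dark. It had 0, 0.252 and 0 CPM in WT dark, 2.24, 6.79 and 7.17 CPM at the low dose and 19.6, 27.1 and 31.3 CPM at the high dose (408 times higher, counting interval 112 to 3375, adjusted p = 3.7e-11 for high dose against dark). Every dose step was free of overlap. CRK18 had 0.0836, 0 and 0 CPM in dark, 1.45, 3.17 and 6.82 CPM at the low dose and 4.89, 10.2 and 9.71 CPM at the high dose (255 times higher, counting interval 45.3 to 10137, adjusted p = 1.5e-08 for high dose against dark). EP1 (171 times higher, counting interval 30.1 to 6812, adjusted p = 1.89e-08), CRK8 (66.2 times higher, counting interval 11.3 to 2670.0, adjusted p = 2.43e-06) and CRK6 (log2 fold change 3.96 ± 0.64, adjusted p = 8.81e-06) also rose. CRK6 (AT4G23140), which is known with CRK7 to protect against oxidative stress in the apoplast, reached 1.67, 2.42 and 2.43 CPM at the high dose, against 0.0836, 0.126 and 0.177 CPM in dark. CRK26 rose as well (log2 fold change 1.501 ± 0.45, adjusted p = 0.00594), a call lost without WT high-dose library 3 (1.18 to 2.13 over the fits, highest adjusted p = 0.0517).

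The 4 members that fell at the high dose in WT had low to moderate levels in dark. CRK42 (AT5G40380) had 4.18, 6.69 and 5.04 CPM in dark, 4.08, 2.91 and 4.75 CPM at the low dose and 1.67, 0.323 and 0.694 CPM at the high dose (log2 fold change -2.50 ± 0.33, adjusted p = 4.95e-07). CRK34 had 2.26, 4.54 and 4.86 CPM in dark, 0.79, 1.41 and 1.52 CPM at the low dose and 0.773, 1.62 and 1.04 CPM at the high dose (log2 fold change -1.78 ± 0.40, adjusted p = 0.000492). In CRK34 the low-dose libraries were already below all dark libraries. CRK27 had 2.34, 2.90 and 1.33 CPM in dark, 1.45, 1.15 and 0.718 CPM at the low dose and 0, 0.808 and 0.462 CPM at the high dose (log2 fold change -2.39 ± 0.57, adjusted p = 0.000799). CRK25 had 1.59, 1.26 and 2.48 CPM in dark, 1.45, 3.53 and 2.42 CPM at the low dose and 0.129, 0.808 and 0.347 CPM at the high dose (log2 fold change -2.13 ± 0.64, adjusted p = 0.00553). All 4 had high-dose libraries below every dark library, which is no further result for members picked by their call. The 4 loci lie outside the 20-gene run. There 9 of 11 tested members rose and 0 fell at edgeR's adjusted threshold, against 33% and 31.5% of all genes. Members of that run did fall elsewhere: 1 in WT at the low dose (12.7% of all genes), 2 in xpf-3 at each dose (33.9% and 35.5%). In uvr8-6 at the high dose 1 fell (25.4%). CRK16, in that run, had 0.386, 0.485 and 0.925 CPM at the high dose and 0.836, 1.01 and 1.24 CPM in dark (log2 fold change -0.73 ± 0.64, adjusted p = 0.324) and was not called. CRK30 had 0.902, 0.485 and 1.27 CPM at the high dose and 1.17, 0.126 and 0 CPM in dark (log2 fold change 0.95 ± 0.69, adjusted p = 0.233), and was the last of the members that did not pass.

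**Figure D3:**
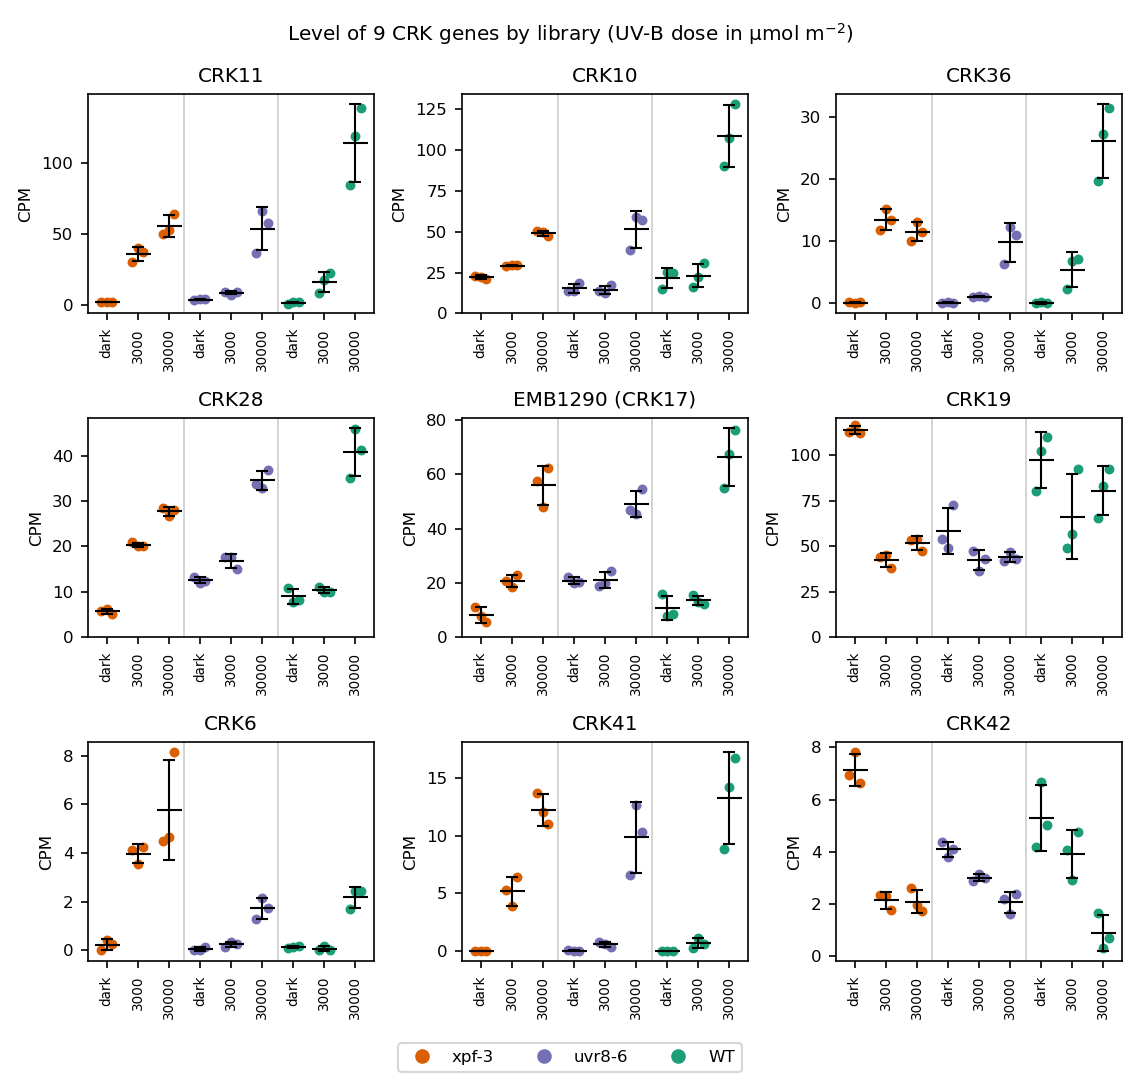
CPM of CRK11, CRK10, CRK36, CRK28, EMB1290, CRK19, CRK6, CRK41 and CRK42 in each library (points) by UV-B dose, in xpf-3, uvr8-6 and WT, with the mean and SD of 3 libraries. CRK11 reaches 84.2 to 139 CPM in WT at the high dose, and CRK19 and CRK42 were not called higher than dark at either dose in any genotype.

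At the low dose in WT, 7 of 28 members were higher than in dark, against 12.9% of all genes, and 2 were lower, against 12.7% (25.6% either way). The median was 0.30 over the members and 0.02 over all tested genes. The 7 were CRK11 (log2 fold change 3.36 ± 0.35, adjusted p = 4.02e-07), CRK36 (90.2 times higher, counting interval 24.6 to 751, adjusted p = 5.19e-07), CRK18 (128 times higher, counting interval 22.5 to 5078, adjusted p = 4.96e-06), AT4G11521 (at least 21.8-fold higher, adjusted p = 9.95e-06), CRK41 (at least 7.604-fold higher, adjusted p = 0.000943), ARCK1 (at least 3.11-fold higher, adjusted p = 0.0146) and CRK31 (at least 1.73-fold higher, adjusted p = 0.0336). AT4G11521 had 1.05, 2.47 and 2.42 CPM and CRK41 had 0.263, 1.15 and 0.628 CPM at the low dose, where both were at 0 counts in dark. ARCK1 had 0.132, 0.353 and 0.359 CPM and CRK31 had 0.132, 0.0882 and 0.269 CPM at the low dose, only a few counts each. All 7 were free of overlap with dark, which for the loci at 0 counts there needs only a count in each low-dose library. The call on CRK31 was lost without WT dark library 1, 2 or 3 or WT low-dose library 3 (3.38 to 4.29 over the fits, highest adjusted p = 0.141). CRK34 (log2 fold change -1.59 ± 0.38, adjusted p = 0.00292) and CRK19 (log2 fold change -0.56 ± 0.18, adjusted p = 0.0256) were the 2 that fell. CRK19's low-dose and dark libraries overlapped, and its call was lost without WT dark library 2 or 3 or WT low-dose library 1 or 2 (-0.88 to -0.39 over the fits, highest adjusted p = 0.135).

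Between the high and the low dose in WT, 18 of 28 members were higher, against 22.9% of all genes, and 2 were lower, against 23.5% (46.4% either way). The median was 2.22 over the members and 0.01 over all genes. Apart from loci with 3 or fewer counts in a group, the largest increase was that of ARCK1 (log2 fold change 5.28 ± 0.44, adjusted p = 3.58e-08). CRK31 (log2 fold change 5.12 ± 0.44, adjusted p = 6.25e-09), CRK41 (log2 fold change 4.19 ± 0.39, adjusted p = 5.17e-08) and CRK11 (log2 fold change 2.80 ± 0.26, adjusted p = 1.85e-08) rose over both dose steps. CRK39 (at least 101-fold higher, adjusted p = 7.54e-07) and CRK12 (at least 29.3-fold higher, adjusted p = 3.95e-05) had no count at either dark or low dose. CRK42 (log2 fold change -2.07 ± 0.33, adjusted p = 2.13e-05) and CRK25 (log2 fold change -2.61 ± 0.62, adjusted p = 0.00129) fell. Calls were lost for CRK18 without WT low-dose library 1 or 2 or WT high-dose library 2 or 3 (0.70 to 1.74 over the fits, highest adjusted p = 0.123) and for CRK3 without WT low-dose library 1 (0.38 to 0.71 over the fits, highest adjusted p = 0.052).

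In xpf-3, the low dose changed most of the tested members. Compared with xpf-3 dark, 18 of 28 members were higher at the low dose, against 33.4% of all genes, and 5 were lower, against 33.9% (67.3% either way). The median was 3.10 (2.43 with loci at 0 counts set to their bound) over the members and -0.01 over all genes. CRK11 had 1.82, 1.71 and 2.13 CPM in xpf-3 dark, 29.9, 39.8 and 37.6 CPM at the low dose and 49.95, 52.7 and 64.3 CPM at the high dose (log2 fold change 4.24 ± 0.34, adjusted p = 6.24e-10 for low dose against dark). CRK28 had 5.88, 6.21 and 5.08 CPM in dark, 20.9, 20.1 and 20.1 CPM at the low dose and 28.4, 26.6 and 28.1 CPM at the high dose (log2 fold change 1.83 ± 0.13, adjusted p = 6.84e-11 for low dose against dark). EMB1290 had 11.2, 7.71 and 5.55 CPM in dark, 20.8, 18.7 and 23.1 CPM at the low dose and 57.5, 48.1 and 62.2 CPM at the high dose (log2 fold change 1.35 ± 0.23, adjusted p = 1.87e-05 for low dose against dark). In all 3 genes the low-dose libraries were separate from dark. CRK36 had 0.107, 0 and 0.118 CPM in dark, 11.8, 15.1 and 13.4 CPM at the low dose and 9.94, 13.0 and 11.5 CPM at the high dose (181 times higher, counting interval 49.9 to 1503, adjusted p = 1.05e-09). CRK6 had 0, 0.429 and 0.236 CPM in dark, 4.13, 3.54 and 4.24 CPM at the low dose and 4.497, 4.67 and 8.16 CPM at the high dose (log2 fold change 4.10 ± 0.55, adjusted p = 8.73e-07). The 2 doses overlapped for CRK36 but not for CRK6. CRK26 had 0.855, 1.18 and 1.54 CPM in dark, 3.50, 5.37 and 6.21 CPM at the low dose and 1.42, 1.97 and 1.86 CPM at the high dose (log2 fold change 2.08 ± 0.43, adjusted p = 0.000198 for low dose against dark), so that it peaked at the low dose.

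Members at 0 counts in xpf-3 dark rose too. AT4G11521 had 0, 0 and 0 CPM in xpf-3 dark, 8.59, 10.6 and 10.8 CPM at the low dose and 8.05, 9.60 and 7.88 CPM at the high dose (at least 90.3-fold higher, adjusted p = 2.74e-09 for low dose against dark). CRK41 had 5.30, 3.90 and 6.41 CPM at the low dose and 13.7, 12.1 and 11.03 CPM at the high dose, with 0, 0 and 0 CPM in dark (at least 47.9-fold higher, adjusted p = 2.75e-08). ARCK1 had 2.23, 2.19 and 3.35 CPM at the low dose and 7.34, 6.77 and 8.31 CPM at the high dose, with 0, 0 and 0 CPM in dark (at least 23.8-fold higher, adjusted p = 8.67e-07). Each of the 3 loci had counts in all UV-B libraries and in no dark library. CRK18 (at least 66.5-fold higher, adjusted p = 2.88e-08), CRK14 (at least 26.7-fold higher, adjusted p = 4.92e-06), CRK39 (at least 7.50-fold higher, adjusted p = 0.00109) and CRK12 (at least 3.58-fold higher, adjusted p = 0.00989) had no count in xpf-3 dark either. CRK18 had 6.998, 6.10 and 8.68 CPM and CRK14 had 2.65, 1.95 and 4.04 CPM at the low dose. CRK39 had 1.06, 0.366 and 0.986 CPM and CRK12 had 0.106, 0.732 and 0.395 CPM at the low dose. CRK30 rose at the low dose as well (7.82 times higher, counting interval 1.84 to 70.1, adjusted p = 0.0235), a call lost without xpf-3 dark library 1 (2.30 to 3.26 over the fits, highest adjusted p = 0.0794).

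The low dose lowered 5 members in xpf-3, the abundant CRK19 among them. CRK19 had 113, 116 and 112 CPM in dark, 44.2, 45.0 and 38.3 CPM at the low dose and 53.7, 54.1 and 47.5 CPM at the high dose (log2 fold change -1.42 ± 0.19, adjusted p = 5.89e-07 for low dose against dark). CRK42 had 6.95, 7.82 and 6.62 CPM in dark, 2.33, 2.32 and 1.78 CPM at the low dose and 2.60, 1.97 and 1.72 CPM at the high dose (log2 fold change -1.74 ± 0.28, adjusted p = 7.96e-06). CRK34 had 5.35, 6.00 and 7.45 CPM in dark, 1.06, 1.71 and 1.28 CPM at the low dose and 2.37, 1.35 and 0.573 CPM at the high dose (log2 fold change -2.21 ± 0.37, adjusted p = 1.56e-05). The 3 genes had no low-dose library within the range of dark. CRK16 had 1.28, 1.5 and 0.473 CPM in dark, 0.212, 0.122 and 0.197 CPM at the low dose and 0.237, 0.123 and 0 CPM at the high dose (log2 fold change -2.53 ± 0.77, adjusted p = 0.00591). CRK27 had 2.25, 1.93 and 2.25 CPM in dark, 0.318, 0.732 and 0.986 CPM at the low dose and 0.237, 1.11 and 0.573 CPM at the high dose (log2 fold change -1.63 ± 0.50, adjusted p = 0.0061). CRK16 and CRK27 also separated the groups, and the call on CRK27 was lost without xpf-3 low-dose library 1 (-1.97 to -1.24 over the fits, highest adjusted p = 0.0514).

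At the high dose in xpf-3, 18 members were higher than in dark, against 37.8% of all genes, and 5 were lower, against 35.5% (73.3% either way). The median was 4.45 (4.01 with loci at 0 counts set to their bound) over the members and 0.03 over all genes. The loci from 0 counts in dark were led by CRK41 (at least 109-fold higher, adjusted p = 7.36e-10), and CRK36 was near 0 there (160.1 times higher, counting interval 43.8 to 1329.8, adjusted p = 1.6e-09). CRK11 (log2 fold change 4.88 ± 0.34, adjusted p = 4.45e-11), EMB1290 (log2 fold change 2.77 ± 0.23, adjusted p = 3.42e-10), CRK28 (log2 fold change 2.27 ± 0.13, adjusted p = 1.65e-12) and CRK10 (log2 fold change 1.14 ± 0.21, adjusted p = 4.53e-05) rose, as did CRK39 (at least 48.7-fold higher, adjusted p = 1.54e-06), CRK12 (at least 13.6-fold higher, adjusted p = 0.000193) and CRK14 (at least 66.0-fold higher, adjusted p = 1.39e-07), all 3 at 0 counts in dark. The 5 that fell were CRK42 (log2 fold change -1.80 ± 0.29, adjusted p = 8.32e-06), CRK19 (log2 fold change -1.14 ± 0.19, adjusted p = 8.94e-06), CRK34 (log2 fold change -2.22 ± 0.40, adjusted p = 2.53e-05), CRK16 (10.7 times lower, counting interval 2.71 to 92.3, adjusted p = 0.00376) and CRK27 (log2 fold change -1.58 ± 0.53, adjusted p = 0.0105). The call on CRK27 was lost without xpf-3 high-dose library 1 or 3 (-2.22 to -1.27 over the fits, highest adjusted p = 0.0527). Neither CRK2 (log2 fold change -0.23 ± 0.19, adjusted p = 0.283) nor CRK3 (log2 fold change 0.11 ± 0.16, adjusted p = 0.558) passed. CRK2 had 18.5, 16.9 and 17.8 CPM at the high dose and 19.6, 22.2 and 20.4 CPM in dark. CRK3 had 55.1, 56.5 and 62.6 CPM at the high dose and 57.8, 53.4 and 50.5 CPM in dark. CRK29 had 54.9, 48.0 and 42.7 CPM at the high dose and 41.6, 44.6 and 47.5 CPM in dark (log2 fold change 0.12 ± 0.15, adjusted p = 0.495). For CRK3 and CRK29 the groups overlapped, and for CRK2 all high-dose libraries lay below dark without passing the test.

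Between the high and the low dose in xpf-3, the high dose was higher for 10 members, against 10.5% of all genes, and lower for 1, against 9% (19.5% either way), or 6 to 8 in all with 1 library left out. The median was 0.49 over the members and 0.04 over all genes. CRK39 showed the largest increase (log2 fold change 2.75 ± 0.49, adjusted p = 0.00169), with 7.34, 4.43 and 5.30 CPM at the high dose and 1.06, 0.366 and 0.986 CPM at the low dose, which did not overlap. EMB1290 (log2 fold change 1.42 ± 0.21, adjusted p = 6.01e-05), EP1 (log2 fold change 2.49 ± 0.46, adjusted p = 0.000617), CRK40 (log2 fold change 2.55 ± 0.52, adjusted p = 0.00199) and ARCK1 (log2 fold change 1.51 ± 0.34, adjusted p = 0.00527) rose as well. CRK11 (log2 fold change 0.64 ± 0.25, adjusted p = 0.0737) and CRK36 (log2 fold change -0.21 ± 0.32, adjusted p = 0.679) did not pass. Calls on CRK8, CRK10, CRK14, CRK28 and CRK41 were lost when single libraries were left out. CRK28 lost its call without any 1 of the 6 libraries (highest adjusted p = 0.0925), and CRK10 lost it without xpf-3 low-dose library 1, 2 or 3 or xpf-3 high-dose library 2 (0.67 to 0.71 over the fits, highest adjusted p = 0.0591). CRK8 lost it without xpf-3 low-dose library 1 or 2 or xpf-3 high-dose library 1, 2 or 3 (0.95 to 1.61 over the fits, highest adjusted p = 0.182). CRK14 lost it without xpf-3 low-dose library 1 or 2 or xpf-3 high-dose library 1, 2 or 3 (1.03 to 1.55 over the fits, highest adjusted p = 0.167). CRK41 lost it without xpf-3 low-dose library 2 (0.999 to 1.33 over the fits, highest adjusted p = 0.0688). CRK26 was the 1 that fell (log2 fold change -1.49 ± 0.43, adjusted p = 0.0181), a call lost without xpf-3 low-dose library 3 (-1.76 to -1.37 over the fits, highest adjusted p = 0.0518).

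Whether the response to a dose differed between xpf-3 and WT was tested as the difference of the 2 log2 fold changes against dark. No difference could be estimated for the 6 members at 0 counts in both dark groups. For 3 more, a group at 0 counts left a value that depends on the prior count, so that 19 of the 28 had an estimate with its SE. At the low dose the response of 3 members was higher in xpf-3, against 11.8% of all genes, and that of 2 was lower, against 17.8% (29.6% either way). CRK28 differed by 1.64 ± 0.18, adjusted p = 3.46e-06, CRK6 by 4.95 ± 1.39, adjusted p = 0.0109 and EMB1290 by 1.04 ± 0.32, adjusted p = 0.0186. The size for CRK6 is uncertain, since WT had only 0, 2 and 0 counts at the low dose and 1, 1 and 2 in dark. CRK42 differed by -1.31 ± 0.38, adjusted p = 0.0132 and CRK19 by -0.87 ± 0.26, adjusted p = 0.0152. The difference for CRK28 kept its call without any 1 library. The call on EMB1290 was lost without WT dark library 1 (0.64 to 1.39 over the fits, highest adjusted p = 0.122), that on CRK42 without WT low-dose library 3 (-1.499 to -1.05 over the fits, highest adjusted p = 0.0641) and that on CRK19 without WT dark library 1, WT low-dose library 3 or xpf-3 low-dose library 3 (-0.96 to -0.46 over the fits, highest adjusted p = 0.132). At the high dose 0 members had a higher response in xpf-3 in edgeR or DESeq2, against 5.21% of all genes, and 3 a lower one, against 4.13% (9.34% either way), and 7 had an unadjusted p under 0.05 either way, against 25% of all genes. CRK10 differed by -1.19 ± 0.29, adjusted p = 0.019, CRK2 by -0.87 ± 0.27, adjusted p = 0.0444 and CRK19 by -0.86 ± 0.26, adjusted p = 0.0395. The call on CRK10 was lost without WT dark library 1 (-1.31 to -0.97 over the fits, highest adjusted p = 0.0755). That on CRK2 was lost without WT dark library 1, WT high-dose library 2 or 3, xpf-3 dark library 2 or 3 or xpf-3 high-dose library 1, 2 or 3 (-0.97 to -0.71 over the fits, highest adjusted p = 0.161). That on CRK19 was lost without WT dark library 1, WT high-dose library 2 or 3, xpf-3 dark library 1, 2 or 3 or xpf-3 high-dose library 1, 2 or 3 (-0.99 to -0.74 over the fits, highest adjusted p = 0.14). In darkness, 0 members were higher in xpf-3 than in WT in edgeR or DESeq2, against 0.106% of all genes, and 1 was lower, against 0.0606% (0.167% either way), while 3 had an unadjusted p under 0.05, against 16.7% of all genes. The 1 lower member was CRK28, with 5.88, 6.21 and 5.08 CPM in xpf-3 and 10.9, 7.82 and 8.22 CPM in WT (log2 fold change -0.66 ± 0.14, adjusted p = 0.0476), a call lost without WT dark library 1 or xpf-3 dark library 1, 2 or 3 (-0.77 to -0.49 over the fits, highest adjusted p = 0.277).

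Same-dose comparisons of genotypes were added after the other results had been seen. At the low dose, 16 members were higher in xpf-3 than in WT, against 17.9% of all genes, and 3 were lower, against 20% (37.9% either way). The median was 1.06 over the members and -0.01 over all genes. CRK6 (60.1 times higher, counting interval 16.3 to 503, adjusted p = 1.45e-06) had 4.13, 3.54 and 4.24 CPM in xpf-3 and 0, 0.176 and 0 CPM in WT. CRK41 (log2 fold change 2.84 ± 0.41, adjusted p = 3.4e-05) had 5.30, 3.90 and 6.41 CPM in xpf-3 and 0.263, 1.15 and 0.628 CPM in WT. CRK28 (log2 fold change 0.98 ± 0.12, adjusted p = 3.51e-06) had 20.9, 20.1 and 20.1 CPM in xpf-3 and 11.1, 9.96 and 9.96 CPM in WT. In each of the 3, every xpf-3 library lay above every WT library. AT4G11521 (log2 fold change 2.28 ± 0.32, adjusted p = 4.2e-05), ARCK1 (log2 fold change 3.09 ± 0.49, adjusted p = 0.000146), CRK14 (44.4 times higher, counting interval 11.9 to 373, adjusted p = 6.56e-05), CRK31 (log2 fold change 2.61 ± 0.52, adjusted p = 0.000529), CRK11 (log2 fold change 1.13 ± 0.26, adjusted p = 0.00181) and CRK36 (log2 fold change 1.27 ± 0.32, adjusted p = 0.00379) were also higher in xpf-3. The pair at 0 counts in WT at the low dose, CRK39 (at least 8.31-fold higher, adjusted p = 0.00234) and CRK12 (at least 3.97-fold higher, adjusted p = 0.0164), were detected in xpf-3. The 3 that were lower in xpf-3 were CRK25 (log2 fold change -1.94 ± 0.54, adjusted p = 0.00676), CRK19 (log2 fold change -0.64 ± 0.18, adjusted p = 0.0086) and CRK42 (log2 fold change -0.87 ± 0.28, adjusted p = 0.0195). Of the 19 calls, 6 were lost when some single library was left out, among them those on CRK26, CRK40 and EMB1290, which were higher in xpf-3. CRK12 lost its call without WT low-dose library 3 or xpf-3 low-dose library 2 (4.57 to 5.65 over the fits, highest adjusted p = 0.0565), CRK19 without WT low-dose library 3 (-0.79 to -0.31 over the fits, highest adjusted p = 0.165) and CRK42 without WT low-dose library 3 or xpf-3 low-dose library 3 (-1.03 to -0.68 over the fits, highest adjusted p = 0.11).

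With the high dose, 2 members were higher in xpf-3 than in WT, against 11% of all genes, and 8 were lower, against 8.41% (19.4% either way). The median was -0.48 over the members and -0.01 over all genes. CRK10 (log2 fold change -1.14 ± 0.20, adjusted p = 0.000956) had 50.4, 49.7 and 47.5 CPM in xpf-3 and 90.03, 108 and 128 CPM in WT. CRK31 (log2 fold change -1.74 ± 0.33, adjusted p = 0.00154) had 2.13, 1.72 and 1.72 CPM in xpf-3 and 5.15, 5.33 and 7.86 CPM in WT. CRK11 (log2 fold change -1.03 ± 0.25, adjusted p = 0.00655), CRK28 (log2 fold change -0.56 ± 0.12, adjusted p = 0.00263), CRK3 (log2 fold change -0.69 ± 0.16, adjusted p = 0.00591), CRK2 (log2 fold change -0.72 ± 0.19, adjusted p = 0.0125), CRK36 (log2 fold change -1.17 ± 0.31, adjusted p = 0.0125) and CRK19 (log2 fold change -0.64 ± 0.19, adjusted p = 0.0198) were lower in xpf-3 too, the call on CRK36 being lost without WT high-dose library 3 (-1.34 to -1.01 over the fits, highest adjusted p = 0.0571) and that on CRK19 without WT high-dose library 3 or xpf-3 high-dose library 3 (-0.76 to -0.52 over the fits, highest adjusted p = 0.088). CRK6 (log2 fold change 1.42 ± 0.40, adjusted p = 0.0168) and CRK42 (log2 fold change 1.14 ± 0.38, adjusted p = 0.0366) were the 2 that were higher in xpf-3. The call on CRK6 was lost without WT high-dose library 1 or 2 or xpf-3 high-dose library 3 (1.03 to 1.52 over the fits, highest adjusted p = 0.135), and that on CRK42 without WT high-dose library 2 or 3 or xpf-3 high-dose library 1, 2 or 3 (0.76 to 1.91 over the fits, highest adjusted p = 0.193).

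The low dose in xpf-3 was also set against the high dose in WT. Of the members higher than dark in each, 17 were shared, which is 94.4% of the 18 in xpf-3 at the low dose and 85% of the 20 in WT at the high dose. Over all tested genes the same overlap was 76.4% and 77.3%. Levels nonetheless differed: 1 member was higher in xpf-3 at the low dose than in WT at the high dose, against 11.3% of all genes, and 15 were lower, against 14.1% (25.4% either way). The median was -0.94 over the members and 0.01 over all genes. CRK10 (log2 fold change -1.89 ± 0.21, adjusted p = 1.04e-06), CRK28 (log2 fold change -0.998 ± 0.12, adjusted p = 1.72e-06), EMB1290 (log2 fold change -1.67 ± 0.21, adjusted p = 3.92e-06) and CRK11 (log2 fold change -1.67 ± 0.25, adjusted p = 3.84e-05) were among the lower ones. CRK39 showed the largest decrease (log2 fold change -3.59 ± 0.47, adjusted p = 8.54e-05). The calls on CRK14 and CRK36, both lower, were lost without WT high-dose library 2 or 3 or xpf-3 low-dose library 1, without xpf-3 low-dose library 2 for CRK14, and without xpf-3 low-dose library 3 for CRK36 (highest adjusted p = 0.314 for CRK14 and 0.11 for CRK36). CRK42 was the 1 that was higher (log2 fold change 1.20 ± 0.36, adjusted p = 0.0155), a call lost without WT high-dose library 2 or 3 (0.89 to 1.98 over the fits, highest adjusted p = 0.0822).

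**Figure D4:**
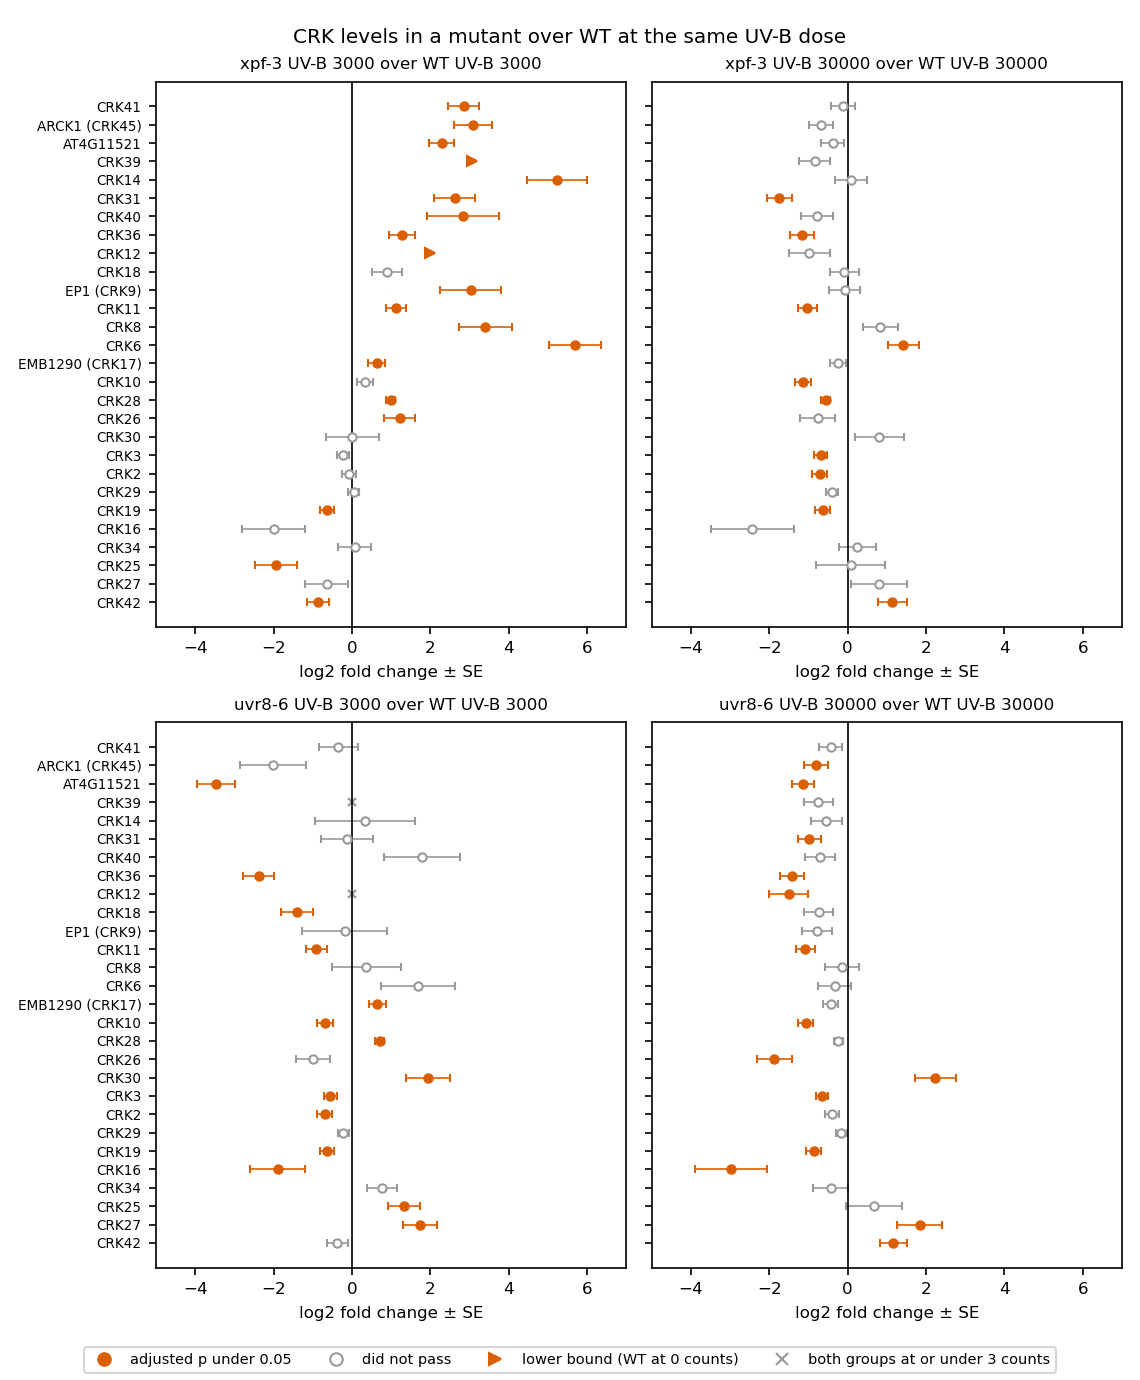
Difference between genotypes at the same dose, as log2 fold change ± SE of the fit (n = 3 libraries per group), for the 28 tested members, in 4 panels: xpf-3 against WT and uvr8-6 against WT, each at 3000 and 30000 µmol m-2. Triangles are lower bounds where a group is at 0 counts, and crosses mark members with at most 3 counts in both groups. At 3000 µmol m-2 most points of xpf-3 lie right of 0, and at 30000 most points of both mutants lie left of it.

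In uvr8-6, the low dose changed few genes of the family. Compared with uvr8-6 dark, 6 of 28 members were higher, against 2.63% of all genes, and 0 were lower in edgeR or DESeq2, against 2.88% (5.51% either way). With 1 library left out, 1 to 4 members were called. The median was 0.30 (0.29 with loci at 0 counts set to their bound) over the members and 0.02 over all genes. An unadjusted p under 0.05 was reached by 10 members and by 18.6% of all genes. With the replicate number as a block, AT4G11521 (log2 fold change 3.99, adjusted p = 0.0192) was also higher and CRK19 (log2 fold change -0.46, adjusted p = 0.0276) lower. CRK36 had 0.0617, 0.216 and 0 CPM in uvr8-6 dark, 0.94, 1.19 and 1.04 CPM at the low dose and 6.29, 12.2 and 10.9 CPM at the high dose (log2 fold change 3.42 ± 0.72, adjusted p = 0.00504 for low dose against dark). CRK41 had 0.0617, 0 and 0 CPM in dark, 0.738, 0.594 and 0.365 CPM at the low dose and 6.57, 12.7 and 10.4 CPM at the high dose (25.5 times higher, counting interval 4.20 to 1047, adjusted p = 0.00674). CRK18 had 0.37, 0.144 and 0.193 CPM in dark, 2.08, 1.25 and 1.10 CPM at the low dose and 4.73, 6.08 and 4.07 CPM at the high dose (log2 fold change 2.56 ± 0.58, adjusted p = 0.0096). For all 3 the groups were separate at each dose. CRK11 had 3.15, 3.88 and 4.25 CPM in dark, 9.40, 7.26 and 9.38 CPM at the low dose and 36.7, 66.4 and 57.8 CPM at the high dose (log2 fold change 1.21 ± 0.30, adjusted p = 0.0165). CRK28 had 13.3, 12 and 12.4 CPM in dark, 17.6, 17.6 and 15.1 CPM at the low dose and 33.8, 33.0 and 36.8 CPM at the high dose (log2 fold change 0.42 ± 0.12, adjusted p = 0.034). CRK40 had 0, 0 and 0 CPM in dark, 0.201, 0.33 and 0.244 CPM at the low dose and 2.83, 4.39 and 2.99 CPM at the high dose (at least 3.93-fold higher, adjusted p = 0.0327). Of these 6 calls, CRK36 alone was kept without any 1 library. CRK28 lost its call without any 1 of the 6 libraries (highest adjusted p = 0.145). CRK41 lost it without uvr8-6 dark library 3 (3.68 to 5.62 over the fits, highest adjusted p = 0.0525). CRK18 lost it without uvr8-6 dark library 3 (2.24 to 3.03 over the fits, highest adjusted p = 0.0682). CRK11 lost it without uvr8-6 dark library 1 or 3 or uvr8-6 low-dose library 1 or 3 (1.09 to 1.32 over the fits, highest adjusted p = 0.0807). CRK40 lost it without uvr8-6 dark library 1, 2 or 3 or uvr8-6 low-dose library 2 or 3 (4.33 to 4.67 over the fits, highest adjusted p = 0.129).

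At the high dose in uvr8-6, 20 members were higher than in dark, against 32.2% of all genes, and 5 were lower, against 25.4% (57.7% either way). The median was 2.89 over the members and 0.09 over all genes. CRK10 had 38.6, 58.8 and 57.4 CPM at the high dose and 13.9, 13.9 and 18.5 CPM in dark (log2 fold change 1.74 ± 0.21, adjusted p = 3.18e-07). EMB1290 had 47.0, 45.4 and 54.4 CPM at the high dose and 22.3, 19.8 and 20.5 CPM in dark (log2 fold change 1.23 ± 0.20, adjusted p = 1.93e-05). CRK2 had 17.9, 25.3 and 23.1 CPM at the high dose and 12.1, 10.1 and 13.3 CPM in dark (log2 fold change 0.90 ± 0.18, adjusted p = 0.000262). Groups were separate for each of these. ARCK1 had 5.23, 9.09 and 6.29 CPM at the high dose and 0, 0 and 0 CPM in dark (at least 103-fold higher, adjusted p = 5.87e-09). AT4G11521 had 3.53, 7.01 and 4.61 CPM at the high dose and 0, 0 and 0 CPM in dark (at least 75.7-fold higher, adjusted p = 9.55e-09). CRK39 had 3.89, 8.55 and 5.45 CPM at the high dose and 0, 0 and 0 CPM in dark (at least 89.2-fold higher, adjusted p = 7.23e-07). CRK14 (at least 68.4-fold higher, adjusted p = 2.66e-07), CRK40 (at least 51.0-fold higher, adjusted p = 1.21e-07) and CRK12 (at least 14.9-fold higher, adjusted p = 0.000188) were likewise at 0 counts in uvr8-6 dark. CRK41 (449 times higher, counting interval 80.1 to 17767, adjusted p = 1.06e-09), CRK36 (log2 fold change 6.62 ± 0.55, adjusted p = 1.41e-09), CRK11 (log2 fold change 3.83 ± 0.29, adjusted p = 5.32e-10) and CRK28 (log2 fold change 1.46 ± 0.12, adjusted p = 5.59e-10) rose as well. CRK29 rose by a small amount (log2 fold change 0.39 ± 0.15, adjusted p = 0.027), a call lost without uvr8-6 dark library 1 or 2 or uvr8-6 high-dose library 1, 2 or 3 (0.34 to 0.44 over the fits, highest adjusted p = 0.083).

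The 5 members that fell at the high dose in uvr8-6 included 3, CRK27, CRK34 and CRK42, that fell in all 3 genotypes. CRK25 had 4.26, 6.83 and 6.12 CPM in dark, 5.84, 7.13 and 6.15 CPM at the low dose and 0.353, 1.23 and 0.419 CPM at the high dose (log2 fold change -3.12 ± 0.47, adjusted p = 6.03e-06). CRK27 had 4.07, 5.32 and 5.02 CPM in dark, 3.69, 4.09 and 3.05 CPM at the low dose and 2.05, 1.62 and 0.778 CPM at the high dose (log2 fold change -1.71 ± 0.39, adjusted p = 0.000719). CRK34 had 2.22, 2.66 and 3.86 CPM in dark, 2.95, 2.05 and 1.52 CPM at the low dose and 0.777, 0.924 and 0.778 CPM at the high dose (log2 fold change -1.81 ± 0.38, adjusted p = 0.000291). All 3 had high-dose libraries below every dark library. CRK42 had 4.38, 3.81 and 4.12 CPM in dark, 2.89, 3.17 and 2.98 CPM at the low dose and 2.19, 1.62 and 2.40 CPM at the high dose (log2 fold change -0.98 ± 0.26, adjusted p = 0.00295). CRK16 had 0.141, 0 and 0.0599 CPM at the high dose and 0.185, 0.0719 and 0.901 CPM in dark (5.76 times lower, counting interval 1.68 to 30.5, adjusted p = 0.0292), with groups that overlapped, and its call was lost without uvr8-6 dark library 3 or uvr8-6 high-dose library 2 or 3 (-3.16 to -0.85 over the fits, highest adjusted p = 0.5). CRK19 did not pass in edgeR's main fit (log2 fold change -0.41 ± 0.18, adjusted p = 0.0563). It had 42.0, 47.0 and 42.9 CPM at the high dose and 54.0, 48.8 and 72.5 CPM in dark, without overlap. The fall of CRK19 passed with DESeq2 (adjusted p = 0.0259), with its size factors (0.0276) and without the filter (0.0216). It also passed with only the compared groups (0.0332) and with the replicate number as a block (0.0108).

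Between the high and the low dose in uvr8-6, 20 members were higher, against 22.3% of all genes, and 3 were lower, against 18.5% (40.8% either way). The median was 1.79 over the members and 0.07 over all genes. ARCK1 was near 0 at the low dose (105 times higher, counting interval 35.6 to 512, adjusted p = 4.06e-08), and CRK39 had no count at the low dose (at least 90.8-fold higher, adjusted p = 1.6e-06). CRK12 was at 0 counts there too (at least 15.2-fold higher, adjusted p = 0.000345). CRK25 (log2 fold change -3.27 ± 0.46, adjusted p = 6.58e-06), CRK34 (log2 fold change -1.38 ± 0.38, adjusted p = 0.00626) and CRK27 (log2 fold change -1.29 ± 0.39, adjusted p = 0.0114) fell, and the call on CRK27 was lost without uvr8-6 high-dose library 3 (-1.61 to -0.97 over the fits, highest adjusted p = 0.0732). Of the rises, the call on CRK29 was lost without uvr8-6 low-dose library 1 or 3 or uvr8-6 high-dose library 1, 2 or 3 (0.35 to 0.45 over the fits, highest adjusted p = 0.107) and that on CRK3 without uvr8-6 low-dose library 1 or 2 or uvr8-6 high-dose library 2 or 3 (0.37 to 0.54 over the fits, highest adjusted p = 0.103).

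Of the members higher than dark at the high dose, 18 were shared by uvr8-6 and WT, 90% of the 20 in uvr8-6 and 90% of the 20 in WT, where over all tested genes the overlap was 81.9% and 80%. All 3 genotypes shared 17 of the 22 members higher in at least 1, and 55.6% of all genes higher in at least 1. Of the 6 members lower in at least 1 genotype, 3 were lower in all 3, as were 52.5% of such genes. In uvr8-6 too, no difference of response from WT could be estimated for the 6 members at 0 counts in both dark groups. For 2 more a group was at 0 counts, so that 20 of the 28 had an estimate with its SE. Over all genes at the low dose, 0.53% had a lower response in uvr8-6 and 0.258% a higher one (0.788% either way). At that dose the response of 1 member, CRK11, differed between uvr8-6 and WT in edgeR's test, by -2.15 ± 0.48, adjusted p = 0.0324. The call was lost without WT dark library 1, 2 or 3, WT low-dose library 2 or 3, uvr8-6 dark library 2 or 3 or uvr8-6 low-dose library 1, 2 or 3 (-2.44 to -1.83 over the fits, highest adjusted p = 0.106). For the high dose, 1 member had a higher response in uvr8-6, against 4.48% of all genes, and 4 a lower one, against 3.73% (8.21% either way). CRK11 differed by -2.33 ± 0.46, adjusted p = 0.0037, EMB1290 by -1.37 ± 0.29, adjusted p = 0.00542 and CRK28 by -0.71 ± 0.17, adjusted p = 0.0107, and these 3 calls were kept without any 1 library. All 3 started from a higher dark level in uvr8-6, given below. At the high dose itself EMB1290 (log2 fold change -0.44) and CRK28 (-0.24) did not pass against WT in edgeR's main fit. Both passed there with DESeq2 (adjusted p = 0.0494 and 0.036). CRK42 differed by 1.52 ± 0.43, adjusted p = 0.0286, a call lost without WT dark library 2, WT high-dose library 2 or 3, uvr8-6 dark library 2 or uvr8-6 high-dose library 1 or 3 (1.11 to 2.29 over the fits, highest adjusted p = 0.119). CRK31 differed by -4.38 with no SE, adjusted p = 0.0458, a value that depends on the prior count because WT dark was at 0 counts, and its call was lost without WT dark library 1, 2 or 3, WT high-dose library 2 or 3, uvr8-6 dark library 1 or 2 or uvr8-6 high-dose library 1 (-4.61 to -4.16 over the fits, highest adjusted p = 0.116).

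Dark levels also differed between uvr8-6 and WT. In darkness, 5 members were higher in uvr8-6 than in WT, against 14.2% of all genes, and 2 were lower, against 17.2% (31.4% either way), in libraries from separate runs. EMB1290 had 22.3, 19.8 and 20.5 CPM in uvr8-6 and 15.8, 7.82 and 8.67 CPM in WT (log2 fold change 0.94 ± 0.21, adjusted p = 0.00263). CRK11 had 3.15, 3.88 and 4.25 CPM in uvr8-6 and 0.92, 2.02 and 1.95 CPM in WT (log2 fold change 1.24 ± 0.39, adjusted p = 0.0208), a call lost without WT dark library 1 or uvr8-6 dark library 2 or 3 (0.92 to 1.44 over the fits, highest adjusted p = 0.103). CRK28 had 13.3, 12 and 12.4 CPM in uvr8-6 and 10.9, 7.82 and 8.22 CPM in WT (log2 fold change 0.47 ± 0.12, adjusted p = 0.0063). For all 3 the genotypes were separate in darkness. CRK25 (log2 fold change 1.66 ± 0.42, adjusted p = 0.00545) and CRK27 (log2 fold change 1.15 ± 0.39, adjusted p = 0.0268) were also higher in uvr8-6, the call on CRK27 being lost without WT dark library 3 or uvr8-6 dark library 2 (0.88 to 1.38 over the fits, highest adjusted p = 0.146). CRK19 had 54.0, 48.8 and 72.5 CPM in uvr8-6 and 80.5, 102 and 110.1 CPM in WT (log2 fold change -0.74 ± 0.18, adjusted p = 0.00413). CRK2 had 12.1, 10.1 and 13.3 CPM in uvr8-6 and 14.5, 20.7 and 21.1 CPM in WT (log2 fold change -0.66 ± 0.19, adjusted p = 0.0111), a call lost without WT dark library 2 or 3 or uvr8-6 dark library 2 (-0.82 to -0.56 over the fits, highest adjusted p = 0.066).

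At equal UV-B doses, more of the called members were lower than higher in uvr8-6. At the low dose, 5 members were higher, against 12% of all genes, and 9 lower, against 15.3% (27.4% either way). The median was -0.21 over the members and 0.01 over all genes. AT4G11521 (log2 fold change -3.48 ± 0.48, adjusted p = 0.000118) had 0.201, 0.198 and 0.122 CPM in uvr8-6 and 1.05, 2.47 and 2.42 CPM in WT. CRK36 (log2 fold change -2.38 ± 0.39, adjusted p = 0.000207) had 0.94, 1.19 and 1.04 CPM in uvr8-6 and 2.24, 6.79 and 7.17 CPM in WT. Neither gene showed any overlap between genotypes, and CRK28 was among those higher in uvr8-6 (log2 fold change 0.70 ± 0.12, adjusted p = 0.000306). Of the 14 calls at this dose, 10 were lost without WT low-dose library 3, and AT4G11521, CRK36, CRK27 and CRK28 kept theirs without any 1 library. At the high dose, 3 members were higher, against 18.9% of all genes, and 11 lower, against 17.7% (36.6% either way). The median was -0.69 over the members and 0.03 over all genes. CRK36 (log2 fold change -1.41 ± 0.30, adjusted p = 0.00107) had 6.29, 12.2 and 10.9 CPM in uvr8-6 and 19.6, 27.1 and 31.3 CPM in WT. CRK11 (log2 fold change -1.09 ± 0.24, adjusted p = 0.00147), CRK10 (log2 fold change -1.07 ± 0.20, adjusted p = 0.000281), CRK19 (log2 fold change -0.87 ± 0.18, adjusted p = 0.00086), CRK26 (log2 fold change -1.87 ± 0.44, adjusted p = 0.00227) and CRK3 (log2 fold change -0.66 ± 0.16, adjusted p = 0.00264) were lower in uvr8-6 as well. CRK30 was higher in uvr8-6 (log2 fold change 2.24 ± 0.53, adjusted p = 0.00223), with 5.09, 3.31 and 4.67 CPM, against 0.902, 0.485 and 1.27 CPM in WT. CRK42 was higher too (log2 fold change 1.16 ± 0.34, adjusted p = 0.0108), a call lost without WT high-dose library 2 or 3 (0.76 to 1.94 over the fits, highest adjusted p = 0.0886). Calls on ARCK1, CRK12 and CRK31, all lower, and on CRK27, higher, were also lost when some single library was left out (highest adjusted p = 0.276, 0.156, 0.0822 and 0.0847, in that order). CRK16 showed the largest decrease (9.05 times lower, counting interval 2.53 to 49.1, adjusted p = 0.0145), on few counts, and its call was lost without WT high-dose library 3 (-3.79 to -2.47 over the fits, highest adjusted p = 0.0965).

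The 15 members that were not tested were rare in every group. RKF2 had 0 counts in all 27 libraries, where 3 counts would be 0.0102 CPM. The other 14 had totals between 1 count (CRK23) and 94 counts (CRK22) over all 27 libraries. For 13 of the 15 the highest group mean was that of a high-dose group. CRK37 reached 1.10 CPM in uvr8-6 at the high dose, from 49 counts, against 1 count in uvr8-6 dark. CRK15 had 26 counts in that group and 0 in uvr8-6 dark, and CRK22 had 40 and 7. CRK4, whose induced expression is known to cause cell death, went the other way, with 1 count in WT at the high dose and 6 counts in WT dark. CRK5 and CRK20, known for the same effect, had totals of 8 and 28 counts, CRK13, whose overexpression is known to give pathogen resistance, had 25, and CRK7 had 16.

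Genes known to act with the family were described for context. The list of 21 cell-surface immune receptors and oxidative burst genes was chosen with earlier results known. In WT at the high dose 16 of 21 were higher than dark, against 33% of all genes, and 3 lower, against 31.5%, with a median of 0.91. In xpf-3 10 were higher and 8 lower, against 37.8% and 35.5%, which is near the share over all genes, and in uvr8-6 13 were higher and 3 lower, against 32.2% and 25.4%. At the low dose 7 were higher and 8 lower in xpf-3, again near the 33.4% and 33.9% of all genes. In uvr8-6 0 were higher and 1 lower by edgeR's adjusted p (2.63% and 2.88% of all genes), and in WT 2 were higher and 1 lower (12.9% and 12.7%). By edgeR's adjusted p in WT at the high dose, the mitogen-activated protein kinase MPK3 rose (log2 fold change 1.94 ± 0.14, adjusted p = 2.81e-11), as did RBOHD, which CRK2 phosphorylates (log2 fold change 2.27 ± 0.16, adjusted p = 3.3e-11), and PBL1, a close relative of BIK1 (log2 fold change 1.60 ± 0.13, adjusted p = 1.92e-10). FER, the receptor kinase FERONIA, fell (log2 fold change -1.47 ± 0.12, adjusted p = 3.3e-10). MPK3 had 112, 123 and 136 CPM at the high dose and 28.01, 32.5 and 36.1 CPM in dark. RBOHD had 38.4, 48.1 and 52.5 CPM at the high dose and 9.62, 10.1 and 9.11 CPM in dark, so that both were separate.

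Of the 8 PDLPs, which share the DUF26 repeats with CRKs, 7 were tested. In WT 1 was higher and 4 were lower at the high dose than in dark (33% and 31.5% of all genes), and 1 was higher and 2 were lower at the low dose (12.9% and 12.7%). In xpf-3 1 was higher and 3 were lower at the high dose (37.8% and 35.5%), and 0 were higher and 2 lower at the low dose (33.4% and 33.9%). In uvr8-6 1 was higher and 3 were lower at the high dose (32.2% and 25.4%). At the low dose in uvr8-6, 0 passed in either direction by edgeR's adjusted p (2.63% and 2.88%). There 2 had an unadjusted p under 0.05 in that test, against 18.6% of all genes. PDLP6 (log2 fold change -2.41 ± 0.28, adjusted p = 9e-08), HWI1 (PDLP5; log2 fold change -1.69 ± 0.43, adjusted p = 0.00149) and PDLP8 (log2 fold change -1.19 ± 0.35, adjusted p = 0.00479) fell in WT at the high dose. PDLP1 rose (log2 fold change 3.84 ± 0.66, adjusted p = 2.34e-05), with 1.55, 2.26 and 2.20 CPM at the high dose and 0, 0.126 and 0.265 CPM in dark.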

How the data were processed

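RNA of excised hypocotyls was sequenced with a stranded kit, per the labels' protocols, in 27 libraries. The deposited table holds raw counts per locus. The submitters' processing notes name FastQC, Trimmomatic, HISAT2 and DESeq2; the read counter, its handling of shared reads and the genome build were not given in the sources used here. From these counts, 19794 genes that passed edgeR's expression filter were fitted in 1 model of 9 groups with edgeR 4.0.16 (robust quasi-likelihood test, TMM scaling) in R 4.3.3 with limma 3.58.1, and p-values were adjusted by Benjamini-Hochberg over all of them, with a threshold of 0.05. The code was tested on simulated data. Alternatives were DESeq2 1.42.0, its size factors, no filter, only the compared groups, a replicate block and leaving out each library. Every correlation of the deviations of same-numbered libraries was above 0.1 in WT at 3000 µmol m-2 against dark (lowest 0.133). The same held in the 3 uvr8-6 dose comparisons (lowest 0.156) and not in the others, which the labels do not explain. Differently numbered libraries reached 0.285 in that WT comparison, so number alone does not set its pairs apart. The same holds in uvr8-6 at 3000 and 30000 against dark, where they reached 0.196 and 0.173. Between 30000 and 3000 in uvr8-6 number did set the pairs apart. There same-numbered libraries gave 0.215 to 0.384 and differently numbered ones at most 0.0768. In xpf-3 at 30000 against dark, same-numbered libraries gave 0.0363 to 0.162 and differently numbered ones at most 0.0154. Values by library are given mainly for loci with a group mean of at least 10 CPM and for the largest increase and decrease per comparison. They are also given for many loci at 0 counts in a group that pass and loci that fall with dose. Not every such locus has them in every group. Of the other lists, up to 4 genes are named, those with the smallest p in WT at 30000 µmol m-2 against dark. The members and lists were chosen with earlier results of these data known. RefSeq TAIR10.1 gave positions and promoter sequences.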

Additional observations from a re-analysis of the deposited data

Results flagged for a closer look

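The following differences between the response of a mutant and that of WT to the same dose, each against its own dark group on the log2 scale, passed a test of the difference itself (edgeR's quasi-likelihood test, adjusted over all genes). At 3000 µmol m-2 the response of CRK6 was higher in xpf-3 by 4.95, that of CRK28 by 1.64 and that of EMB1290 by 1.04. The size for CRK6 is uncertain, since it had only 0, 2 and 0 counts in WT at that dose. At the same dose the response of CRK42 differed by -1.31 and that of CRK19 by -0.87, both lower in xpf-3. At 30000 µmol m-2 the response of CRK10 differed by -1.19, that of CRK2 by -0.87 and that of CRK19 by -0.86, all lower in xpf-3. Between uvr8-6 and WT, which come from separate runs, the response of CRK11 differed by -2.15 at 3000 and by -2.33 at 30000 µmol m-2. Also at 30000 µmol m-2, the response of EMB1290 differed by -1.37 and that of CRK28 by -0.71, lower in uvr8-6. The levels of these 2 genes at that dose did not pass against WT in edgeR's main fit. The response of CRK42 differed by 1.52, higher in uvr8-6. CRK31 gave -4.38, which is no measured size, since WT dark was at 0 counts and the value depends on the prior count, and its call was lost in 8 of 12 fits with 1 library left out. Of the 14 calls, 9 were lost when some single library was left out: CRK19, CRK42 and EMB1290 at 3000 and CRK2, CRK10 and CRK19 at 30000 µmol m-2 in xpf-3, and CRK11 at 3000 and CRK31 and CRK42 at 30000 in uvr8-6. With only the compared groups in the fit, the number of calls was 3 against 5 in xpf-3 at 3000, 0 against 1 in uvr8-6 at 3000 and 2 against 5 in uvr8-6 at 30000. No explanation of these differences was tested.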

How the results depend on the processing

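Of 560 member values over the 20 comparisons, 259 were called. None of these 259 changed direction under any alternative, and 2673 of their 2933 recomputed values stayed past the threshold. Calls were lost for 7 of the 259 with DESeq2, 2 with its size factors, 11 without the filter, 32 with only the compared groups and 0 with the replicate block, and 66 were lost in at least 1 fit without a library (208 of 1638 recomputed values). Of the 301 values not called, 10 passed with DESeq2, 5 with its size factors, 4 without the filter, 13 of 281 with only the compared groups and 18 with the replicate block, as did 46 of 2394 with 1 library left out, all in the direction first found. Among them were CRK29 in WT at 30000 µmol m-2 against dark (adjusted p = 0.049 with DESeq2, 0.0467 with its size factors, 0.0374 without the filter and 0.0475 with the block) and CRK11 in xpf-3 at 30000 against 3000 (0.00294 with only the compared groups and 0.00622 with the block). The replicate block moved 1 count of called members by more than 1.5 times: the xpf-3 difference from WT at 30000 µmol m-2 gave 5, against 3. With only the compared groups, the count was 0 against 1 in xpf-3 dark, 3 against 5 for the xpf-3 difference at 3000 µmol m-2, 0 against 1 and 2 against 5 for the uvr8-6 differences at 3000 and 30000, and 7 against 14 for uvr8-6 against WT at 3000. Without the filter, the uvr8-6 difference at 30000 gave 3, against 5.

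With 1 library left out, and dose comparisons given as low dose against dark, high dose against dark and high against low dose, the called members numbered 7 to 11, 23 to 25 and 18 to 24 in WT, 22 to 23, 22 to 24 and 6 to 8 in xpf-3, and 1 to 4, 23 to 25 and 20 to 22 in uvr8-6. Against WT in darkness they numbered 0 to 1 in xpf-3 and 4 to 9 in uvr8-6. The differences of response gave 3 to 6 and 0 to 4 in xpf-3 and 0 to 1 and 3 to 5 in uvr8-6 at 3000 and 30000. At the same doses the levels against WT gave 16 to 19 and 7 to 10 in xpf-3 and 4 to 15 and 9 to 18 in uvr8-6, and xpf-3 at 3000 against WT at 30000 gave 13 to 17. The cause of these changes was not tested, apart from the fewer libraries in each such fit. With DESeq2's size factors the share of higher calls among all genes moved by more than 10 percentage points only for the uvr8-6 difference at 30000, to 42.69% from 54.58%. Loci under about 1 CPM rest on few counts.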
